A study of Mus musculus with 18 samples.

Results

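Splenic CD4 T cells carrying an activator form of the Hedgehog transcription factor Gli2 were compared with cells carrying its repressor form, 6 h after stimulation. Of the 18 arrays in the series, 6 belong to this comparison, chosen by their sample titles: 3 from stimulated Gli2A Tg cells and 3 from stimulated Gli2R Tg cells, with 3 stimulated WT arrays set beside them and the 6 resting arrays of the same transgenic genotypes used as a second, separate comparison. Tg stands for transgenic, and WT for wild type. All mice were on the C57BL/6 background and 9 to 15 weeks old, and all cells were taken from spleen with magnetic beads for CD4. Stimulated cells of all 3 genotypes had anti-CD3 and anti-CD28 for 6 h, and resting cells had neither. The labels give neither the promoter that drives each transgene nor the part of Gli2 it encodes, and they do not say whether the arrays of a group came from separate mice. The p-values therefore measure only the spread between these samples.

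Hedgehog ligands act by binding Patched (Ptch1), which otherwise holds the membrane protein Smoothened (Smo) inactive. Released Smoothened lets full-length Gli proteins reach the nucleus and switch genes on, while without ligand Gli proteins are held by Sufu or trimmed into repressors. Ptch1 is itself a target of Gli proteins and is widely read as a measure of pathway output. In T cells, antibodies to CD3 stand in for antigen and antibodies to CD28 for costimulation, and the first hours bring cytokine transcription, growth and a metabolic switch.

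Expression was measured on Affymetrix arrays. Levels are given as log2 of the deposited intensity plus 16 after quantile normalization, 1 probe set per gene, and differences are Gli2A Tg minus Gli2R Tg on that scale with the standard error (SE) of the fit. A gene is said to be called, and to be higher or lower, at a Benjamini-Hochberg adjusted p under 0.05 from limma over 18193 genes.

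Markers of CD4 T cells were present in both groups, which does not measure the purity of the cells. Cd3e measured 10.11, 10.31 and 10.80 in the Gli2A Tg arrays, against 10.90, 10.21 and 10.70 in the Gli2R Tg arrays, and Cd4 measured 10.36, 10.03 and 10.21 in Gli2A Tg cells, against 10.26, 10.37 and 9.57 in Gli2R Tg cells. The groups overlap in both, and none of the 13 measured identity markers of CD4 T cells was called. Cd8a was also present, at 9.22 ± 0.05 in Gli2A Tg cells and 9.32 ± 0.11 in Gli2R Tg cells (SD, n = 3 each), with a difference of -0.09 and an adjusted p of 0.96. Neither probe set for Gli2 was called. The first averaged 4.37 in Gli2A Tg cells and 4.60 in Gli2R Tg cells (log2 difference -0.22), and the second averaged 5.19 in Gli2A Tg cells and 4.35 in Gli2R Tg cells (log2 difference 0.84, adjusted p = 0.50 in the fit of all probe sets). Both lie below the 25th percentile of gene levels (5.37), and whether they read the transgenes is not stated in the labels, so Gli2 does not check the genotypes.

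Myeloid markers and sex-linked genes moved in part with the groups. The 25 measured myeloid markers (macrophages, monocytes and granulocytes) averaged 7.77, 7.70 and 6.80 in the Gli2A Tg arrays, against 6.33, 6.35 and 6.70 in the Gli2R Tg arrays, and 6.76, 6.46 and 7.08 in the WT arrays. Gli2A Tg replicates 1 and 2 stand above the other 7 stimulated arrays, and replicate 3 lies close to Gli2R Tg replicate 3. On the linear scale the list summed to between 4390 and 9364 in Gli2A Tg cells and between 3106 and 3521 in Gli2R Tg cells. Of the 25, 22 had a difference above 0, 12 did not overlap between groups, all of them higher, against 9.2% of all genes, and 1 was called, Cfp. No marker was at 0, and Itgam, Marco and S100a9 lay below the 25th percentile of genes in both groups. Their part in the results below was not tested beyond a fit with the list's level as a covariate, which called 1 of the 18193 genes, Ptch1.

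**Figure D1:**
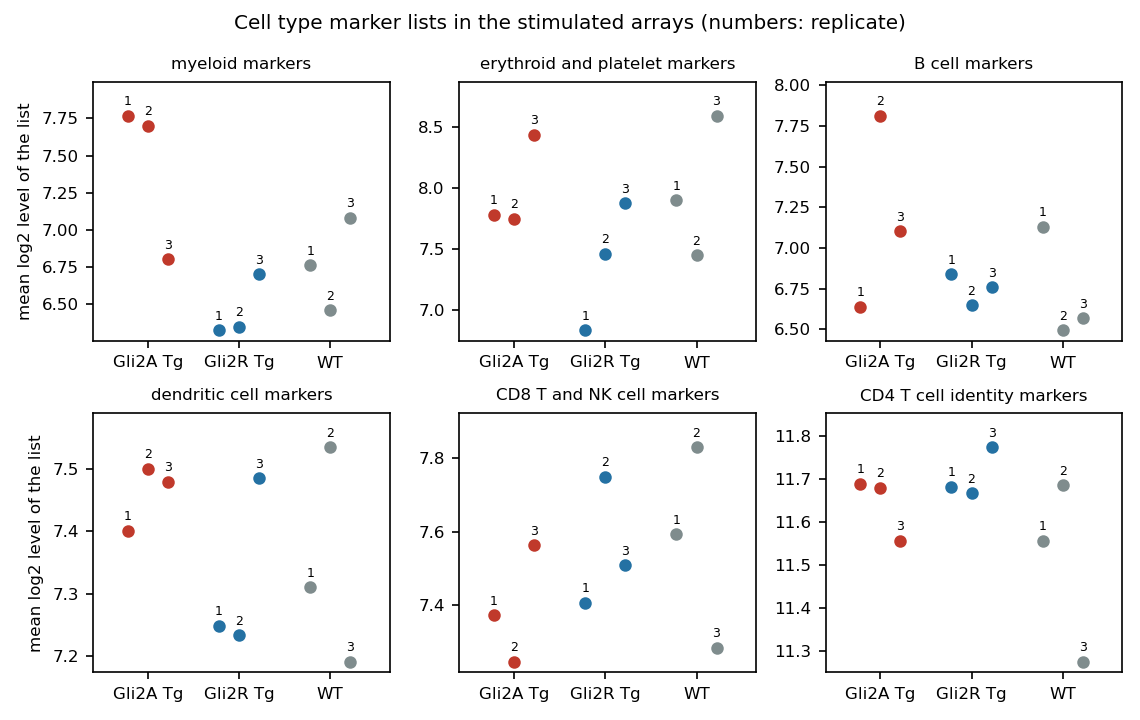
Mean log2 level of 6 marker lists in each of the 9 stimulated arrays, with the replicate number above each point and Gli2A Tg, Gli2R Tg and WT from left to right. Myeloid markers stand at 7.77 and 7.70 in Gli2A Tg replicates 1 and 2, while the CD4 T cell list runs from 11.56 to 11.69 in Gli2A Tg cells and from 11.67 to 11.77 in Gli2R Tg cells.

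Among the other lists, the 14 erythroid and platelet markers had 13 differences above 0 with a median of 0.57. Of the 14, 5 did not overlap between groups, all of them higher, against 9.2% of all genes. Their list averaged 7.75 to 8.44 in Gli2A Tg arrays and 6.83 to 7.87 in Gli2R Tg arrays, ranges that overlap. The 15 B cell markers had 12 above 0 with a median of 0.48, and the 14 dendritic cell markers had 9 above 0 with a median of 0.10. The B cell list averaged 6.64 to 7.81 in Gli2A Tg arrays and 6.65 to 6.84 in Gli2R Tg arrays, so its groups overlap. No member of these lists was called. The largest were Ppbp at 1.82, Pf4 at 1.13 and Klf1 at 1.00 among erythroid and platelet markers, Ms4a1 at 1.05, Bank1 at 1.02 and Cd79a at 0.82 among B cell markers, and Itgax at 0.75, H2-Aa at 0.65 and H2-Eb1 at 0.51 among dendritic cell markers. The 13 CD8 T and NK cell markers (median -0.14, with Gzma at 1.01, Ncr1 at -0.89 and Klrc1 at -0.56) and the 14 pancreas and stromal markers (median -0.04, with Cela3b at -0.82, Cela1 at 0.58 and Ctrb1 at -0.56) had no called member either. The sex of the mice is not given in the labels, and Y-linked Eif2s3y measured 4.85, 4.11 and 4.13 in Gli2A Tg cells, against 11.46, 5.18 and 11.60 in Gli2R Tg cells. Read with Xist (13.28, 12.83 and 13.23 in Gli2A Tg cells, against 8.05, 13.30 and 7.07 in Gli2R Tg cells), 0 of the 3 Gli2A Tg arrays and 2 of the 3 Gli2R Tg arrays, replicates 1 and 3, had a male pattern. Sex and genotype are thus partly confounded in stimulated cells, and a fit with sex as a covariate called 4 genes, Il4, Ptch1, Slco4a1 and Ckb. Stimulated WT replicate 2 also had a male pattern, while all resting Gli2A Tg and Gli2R Tg arrays had a female pattern. A comparison within female-pattern arrays leaves 1 stimulated Gli2R Tg array, which is assumed to vary like the other groups. Gli2A Tg replicate 2 had the highest ratio of 3′ to 5′ actin signal, 2.996 against at most 1.82 in the other arrays of the series. Correlations of all genes between arrays were 0.971 to 0.978 within the stimulated groups and 0.967 to 0.977 between Gli2A Tg and Gli2R Tg arrays.

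In all, 42 genes were called, or 0.231% of those tested. Of these, 36 were higher in Gli2A Tg cells (0.198%) and 6 were lower (0.033%), and 33 differed by more than 2-fold. At an unadjusted p under 0.05 there were 1667 genes, 9.16% of those tested. Groups did not overlap in any of the 42 called genes, against 16.6% of all genes. The called genes included the Hedgehog receptor Ptch1, the cytokine Il4, the TGF-beta ligand Tgfb3 and the coreceptor Tgfbr3, the leukotriene receptor Cysltr1, the growth factor Hbegf and the transporter Slco4a1. Among the 6 lower genes were Dapl1, a gene of naive T cells, the actin-binding Cotl1 and the surface glycoprotein Cd52. In bulk samples, fewer cells of a type and less RNA per cell cannot be told apart.

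**Figure D2:**
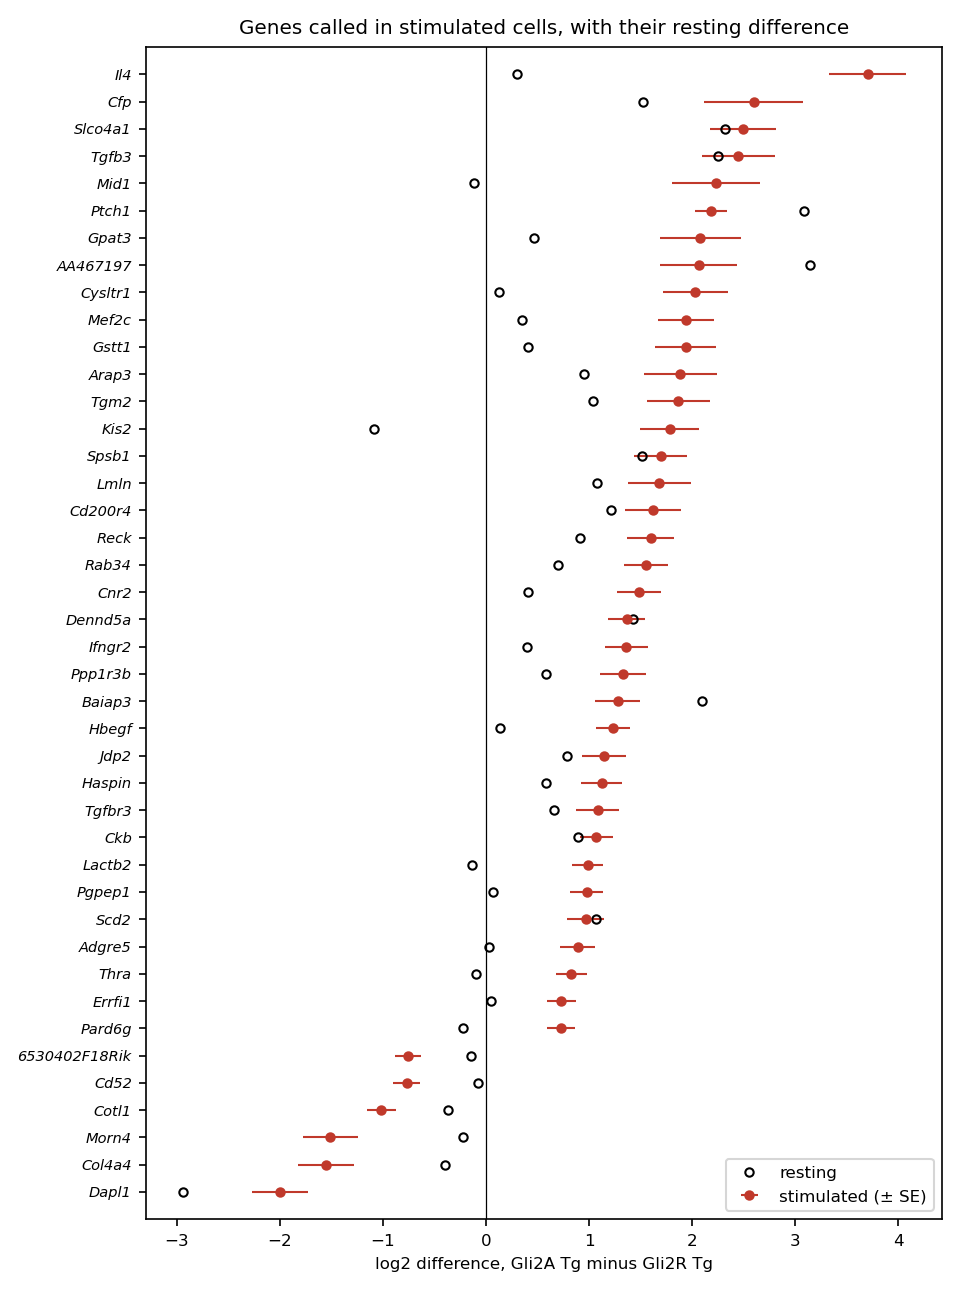
Log2 difference of Gli2A Tg minus Gli2R Tg for the 42 genes called in stimulated cells, with filled points and bars for the stimulated difference and its SE and open points for the resting difference. Il4 stands at 3.70 in stimulated and 0.30 in resting cells, and Ptch1 at 2.18 and 3.09.

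Ptch1, on chromosome 13, measured 12.05, 12.27 and 12.48 in Gli2A Tg cells, against 10.08, 10.23 and 9.96 in Gli2R Tg cells. All Gli2A Tg arrays stand above all others by more than the spread of either group, and the WT arrays, at 10.24, 9.95 and 10.25, overlap with Gli2R Tg. The difference was 2.18 ± 0.16 (SE), or 4.53-fold, with an adjusted p of 1.34e-05, the smallest of the comparison. A second probe set for Ptch1 differed by 1.87 and the dimmest of its 3 probe sets by 0.17. Ptch1 was called in 20 of 21 alternative analyses, and in every one that left out a single array (log2 2.07 to 2.29). It was the only gene called in the 9 stimulated arrays alone.

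Other pathway components moved less. Of 19 measured, Ptch1 was the only one called, 14 had a difference above 0, and the list's median was 0.12, against 0.01 over all genes. Smo, the signal transducer that Ptch1 inhibits, measured 8.26, 8.89 and 8.38 in Gli2A Tg cells, against 7.64, 7.33 and 7.02 in Gli2R Tg cells, a difference of 1.18 without overlap that was not called (adjusted p = 0.08). Neither Gli1 nor the inhibitor Sufu differed by more than 0.29, and Dhh and Gli3, the other members with large differences, stood at -0.86 and -0.74 with overlapping groups. Gli2, Hhip, Kif7, Stk36 and Gpr161 were below the 25th percentile of gene levels in both groups. Among 17 genes listed as Gli targets in other tissues, Ptch1 was again the only call. The survival gene Bcl2 (1.01, adjusted p = 0.052) and Mycn (1.05, adjusted p = 0.55) did not overlap between groups but were not called.

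Il4, the defining cytokine of type 2 helper T cells, had the largest difference of the called genes. It measured 11.54, 12.33 and 11.28 in Gli2A Tg cells, against 7.91, 8.81 and 7.33 in Gli2R Tg cells, with WT between them at 9.10, 9.17 and 10.04. The groups are well apart, with more than 2 log2 units between the lowest Gli2A Tg and the highest Gli2R Tg array. The difference was 3.70 ± 0.37, or 13.0-fold, with an adjusted p of 0.00059. Set against WT, Gli2A Tg cells were higher by 2.28 (adjusted p = 0.026) and Gli2R Tg cells differed by -1.42 without a call (adjusted p = 0.22). In resting cells the Il4 difference was 0.30 (adjusted p = 0.76). Basophils and mast cells also make Il4: of 13 of their markers 8 were above 0, 0 were called, the list averaged 5.99 to 6.37 in Gli2A Tg cells and 5.96 to 6.12 in Gli2R Tg cells, and the basophil protease Mcpt8 differed by 0.35. Prg3, Epx, Il5ra, Ccr3 and Cd200r3 of that list lay below the 25th percentile in both groups, and the largest differences were Hdc at 0.99, Ms4a2 at 0.57 and Kit at 0.55. Il4 stayed called with each array left out (log2 3.36 to 4.10) and with sex as a covariate (3.30, adjusted p = 0.0046), but not with the myeloid level as a covariate (3.60, adjusted p = 0.11). Against the single female-pattern Gli2R Tg array it stood at 2.91 (adjusted p = 0.10).

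The promoters of the pair with the smallest p-values, and of Mid1, are shown because Ptch1 is the textbook Gli target and Il4 the largest called difference. They span 250 bases before to 50 after the start, on the strand of the gene, from RefSeq on GRCm38.p6. Motifs searched on both strands were the Gli motif GACCACCCA (reverse TGGGTGGTC) with at most 1 mismatch, held by 6.74% of 32851 promoters, and the core that NFAT factors bind, GGAAA (reverse TTTCC), held by 61.3%. Capitals mark NFAT cores in Il4, and the Gli-like site in Mid1.
Ptch1, chr13:63565686-63565985, minus strand: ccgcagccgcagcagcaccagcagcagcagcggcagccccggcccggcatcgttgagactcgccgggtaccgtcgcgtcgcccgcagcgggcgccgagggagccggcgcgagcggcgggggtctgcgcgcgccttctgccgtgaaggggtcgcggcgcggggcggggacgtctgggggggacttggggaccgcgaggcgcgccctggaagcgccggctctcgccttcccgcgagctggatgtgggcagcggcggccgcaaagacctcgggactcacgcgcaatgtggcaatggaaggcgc
Il4, chr11:53618616-53618915, minus strand: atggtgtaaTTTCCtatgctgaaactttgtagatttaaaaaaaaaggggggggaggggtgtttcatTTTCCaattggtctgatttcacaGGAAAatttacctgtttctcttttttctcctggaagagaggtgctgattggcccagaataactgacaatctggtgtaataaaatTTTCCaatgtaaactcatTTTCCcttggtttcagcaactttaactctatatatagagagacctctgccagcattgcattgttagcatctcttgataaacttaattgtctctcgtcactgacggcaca
Mid1, chrX:169879369-169879668, plus strand: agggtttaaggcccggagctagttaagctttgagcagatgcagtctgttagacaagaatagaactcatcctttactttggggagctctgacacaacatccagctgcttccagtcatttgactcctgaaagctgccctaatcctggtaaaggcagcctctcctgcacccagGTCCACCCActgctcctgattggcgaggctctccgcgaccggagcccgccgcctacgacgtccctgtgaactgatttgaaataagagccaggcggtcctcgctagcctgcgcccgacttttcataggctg
Il4 holds 5 NFAT cores, a number reached by 0.73% of promoters, and is the most upstream of 2 starts listed for the gene. Ptch1 holds none, is 76.3% G and C against 38.0% in Il4, and neither window holds the Gli motif, so the motifs do not overlap there. Of 28 called genes with a promoter in the table, 2 hold a Gli-like site (7.14%), near the 7.73% of all 27025 genes with a promoter. Mid1 has it 80 bases before the start with the substitution A2T, and the uncharacterised 6530402F18Rik has it with A5C, positions counted from 1 at the motif's 5′ end. No match says only that these letters are not in this window.

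Of the 16 measured genes of type 2 helper cells, Il4 was the only one called, 10 had differences above 0, and the median was 0.28. The neighbouring cytokine gene Il5 measured 6.77, 7.72 and 6.49 in Gli2A Tg cells, against 5.43, 5.46 and 5.62 in Gli2R Tg cells, without overlap but not called (1.49, adjusted p = 0.16). Il13 differed by 0.89 with overlapping groups, and the chemokine receptor Ccr4 by 0.99 without overlap (adjusted p = 0.09). Gata3, the lineage factor of these cells, stood at 9.85 ± 0.26 in Gli2A Tg cells and 9.58 ± 0.34 in Gli2R Tg cells (SD, n = 3 each), and its groups overlap.

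Type 1 helper genes had 1 call among 18, the interferon gamma receptor chain Ifngr2, and a list median of -0.11. Ifngr2 measured 10.38, 10.49 and 9.81 in Gli2A Tg cells, against 8.57, 9.06 and 8.98 in Gli2R Tg cells, a difference of 1.36 ± 0.21 with an adjusted p of 0.013. The groups do not overlap, though a second probe set for Ifngr2 differed by 0.26. The cytokine Ifng itself measured 13.02, 12.23 and 12.97 in Gli2A Tg cells, against 12.38, 12.49 and 11.36 in Gli2R Tg cells, with overlap and an adjusted p of 0.75, and the lineage factor Tbx21 differed by -0.38 (adjusted p = 0.72). The other receptor chain, Ifngr1, differed by -0.19.

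No gene of type 17 and follicular helper cells was called among 15, with Il21 at 1.58, the IL-6 receptor Il6ra at -1.34 and the lineage factor Rora at 0.80 (adjusted p = 0.052), none of the 3 overlapping between groups. Among 20 genes of the IL-2 family none was called, and the largest difference was in Csf2, the gene of the growth factor GM-CSF. Csf2 measured 10.88, 11.18 and 10.62 in Gli2A Tg cells, against 9.06, 9.37 and 9.07 in Gli2R Tg cells, 1.73 with an adjusted p of 0.07. Il2 differed by 0.82 and Il3 by -0.72. No regulatory T cell gene was called among 16, with Foxp3 at -0.29 and, at the ends, Nrp1 at -0.56, Itgae at -0.53 and Ctla4 at 0.47.

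**Figure D3:**
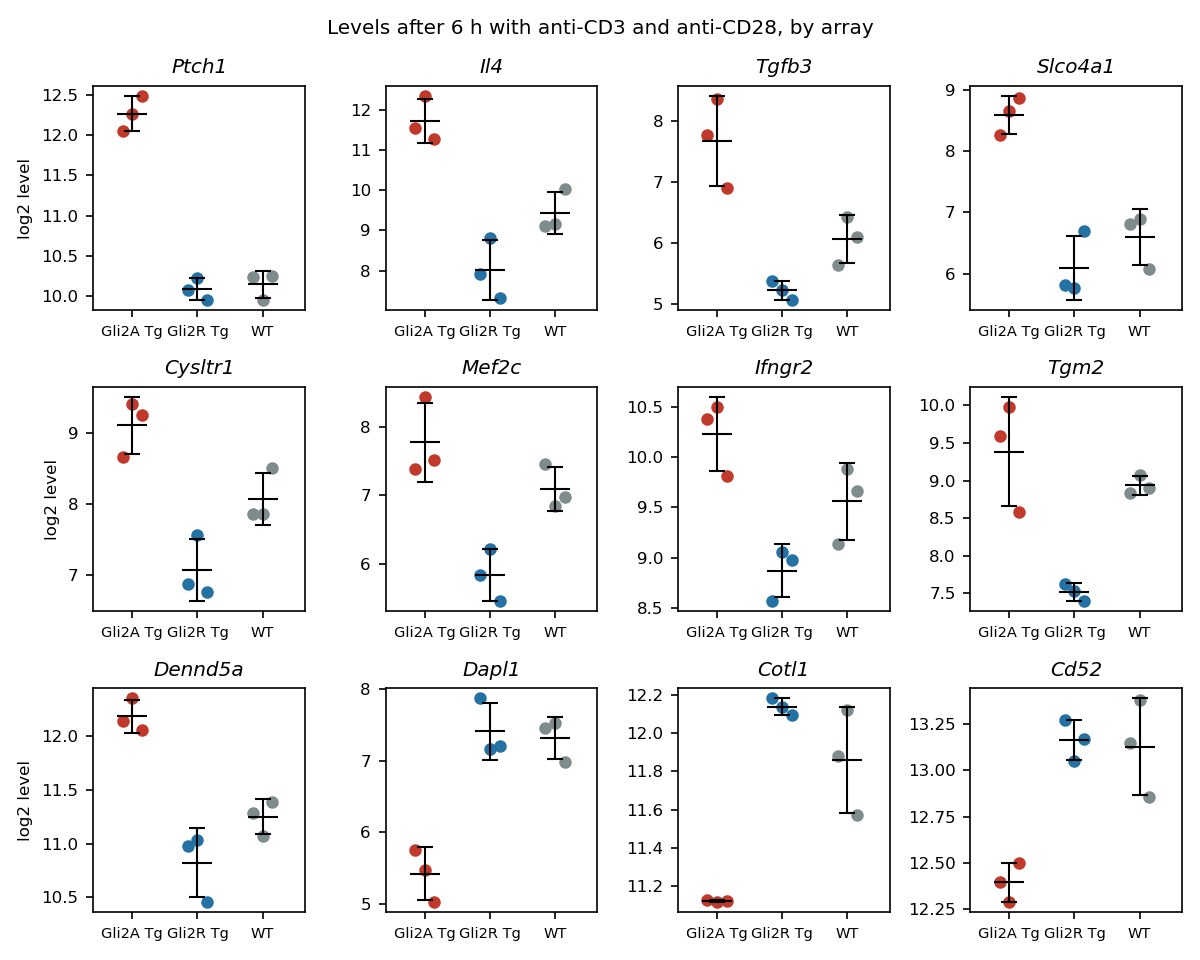
Log2 level of 12 called genes in each stimulated array, with Gli2A Tg, Gli2R Tg and WT from left to right and bars for mean and SD (n = 3 each). Ptch1 in WT cells lies with Gli2R Tg, Il4 in WT cells lies between the transgenic groups, and Dapl1, Cotl1 and Cd52 are lower in every Gli2A Tg array.

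TGF-beta family genes gave 2 calls among 24, both higher, and a median of 0.14. Tgfb3, a ligand, measured 7.77, 8.35 and 6.90 in Gli2A Tg cells, against 5.38, 5.22 and 5.06 in Gli2R Tg cells. Its Gli2A Tg arrays spread over more than 1 log2 unit, replicate 3 being lowest, but all 3 lie above WT at 5.65, 6.43 and 6.11. The difference was 2.45 ± 0.35, or 5.46-fold (adjusted p = 0.0084). The Gli2R Tg mean of 5.22 lies below the 25th percentile of genes, and over the alternative analyses the difference ran between 1.58 and 3.08. It stayed called with each array left out (highest adjusted p = 0.048) and stood at 1.83 without a call once the myeloid level was a covariate. Tgfbr3, the coreceptor betaglycan, which presents these ligands, measured 9.94, 10.47 and 10.69 in Gli2A Tg cells, against 9.35, 9.18 and 9.31 in Gli2R Tg cells. Its difference of 1.09 was near the threshold (adjusted p = 0.048) and was lost with any array but Gli2A Tg replicate 1 left out, with adjusted p up to 0.16. A second probe set for Tgfbr3 differed by only 0.03, and the call was also lost with the mean of probe sets. The ligand Tgfb1, the receptors Tgfbr1 and Tgfbr2 and the transducer Smad3 differed by -0.13, -0.05, -0.04 and 0.19. Tgm2, a transglutaminase known for a part in TGF-beta activation, measured 9.60, 9.98 and 8.58 in Gli2A Tg cells, against 7.63, 7.53 and 7.40 in Gli2R Tg cells. The groups do not overlap and the difference was 1.87 ± 0.31 (adjusted p = 0.019). With the myeloid level as a covariate Tgm2 stood at 1.07 without a call, and the part of other cells in it was not tested. Of its 6 probe sets 5 agree in sign, several of a type that can bind related transcripts.

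The called genes outside the lists are described next by what each is known to do, an order chosen after their values were seen and not tested as groups. Cysltr1, an X-linked receptor for cysteinyl leukotrienes, measured 8.65, 9.41 and 9.24 in Gli2A Tg cells, against 6.88, 7.57 and 6.77 in Gli2R Tg cells, 4.08-fold with an adjusted p of 0.013. Both of its probe sets lie above 1.5, and WT cells lay between the groups. The cannabinoid receptor Cnr2 measured 5.56, 6.49 and 5.54 in Gli2A Tg cells, against 4.34, 4.49 and 4.31 in Gli2R Tg cells, but WT cells stood at 5.63, 5.71 and 5.68 with the Gli2A Tg group, and Gli2R Tg cells were lower than WT by 1.30 (adjusted p = 0.049). Both means for Cnr2 lie below the median gene level of 7.06. Cd200r4, a receptor of the CD200R family, differed by 1.62 and the adhesion receptor Adgre5 (CD97) by 0.89. Adgre5 had an adjusted p of 0.0495 and was lost with any single array left out. A growth factor for EGF receptors, Hbegf, measured 8.21, 7.99 and 7.97 in Gli2A Tg cells, against 6.53, 6.95 and 6.99 in Gli2R Tg cells. That difference, 1.23 ± 0.17 (adjusted p = 0.0075), lies well outside the spread within groups, and Hbegf kept its call with each array left out. Errfi1, a feedback inhibitor of the same receptors, was higher by 0.73 (adjusted p = 0.048). A second probe set for Errfi1 differed by 0.08, and Errfi1 was called in 6 of 21 alternative analyses.

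Transcription and signalling genes among the calls included the factor Mef2c, which measured 7.38, 8.44 and 7.51 in Gli2A Tg cells, against 5.84, 6.22 and 5.46 in Gli2R Tg cells. Its WT values of 7.46, 6.84 and 6.98 reach into the Gli2A Tg range, and the difference was 1.94 ± 0.27 (adjusted p = 0.0080). Mef2c is also expressed in B cells and myeloid cells, and 1 of its 5 probe sets, a dim one, has the opposite sign. The AP-1 repressor Jdp2 was higher by 1.14 with WT below both groups, though its other probe set differed by -0.19 and it was called in 6 of 21 alternative analyses. The thyroid hormone receptor Thra was higher by 0.83 and the mitotic kinase Haspin by 1.12. Spsb1, an adaptor of ubiquitin ligases, was higher by 1.70 ± 0.25 with 4 of 4 probe sets above 0. Mid1, an X-linked ubiquitin ligase, measured 10.26, 10.35 and 10.41 in Gli2A Tg cells, against 7.05, 9.38 and 7.89 in Gli2R Tg cells. Its Gli2R Tg arrays spread over more than 2 log2 units, with the male-pattern replicates 1 and 3 lowest, and with sex as a covariate Mid1 differed by 1.57 (adjusted p = 0.19). Against the single female-pattern Gli2R Tg array Mid1 stood at 0.95. Of its 3 probe sets 1 differed by -0.10, and Mid1 was called in 7 of 21 alternative analyses. The polarity gene Pard6g was higher by 0.73 and the matrix protease inhibitor Reck 3.03-fold (adjusted p = 0.0083).

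Carriers and enzymes were led by Slco4a1, an organic anion transporter. It measured 8.25, 8.64 and 8.86 in Gli2A Tg cells, against 5.82, 5.76 and 6.70 in Gli2R Tg cells, 5.63-fold with an adjusted p of 0.0073, and kept its call with each array left out and with sex as a covariate. Slco4a1 lost it with the mean of probe sets, with the myeloid level as a covariate (2.41, adjusted p = 0.35), in the 9 stimulated arrays and in the 6 compared arrays. Its groups are far apart, but a second probe set for Slco4a1 differed by only 0.54, and the one used is of a type that can bind related transcripts. Gpat3, an enzyme of triglyceride synthesis, was higher by 2.08 ± 0.39, and Gstt1, a glutathione transferase, by 1.94 ± 0.29. Gpat3 was called in only 5 of 20 alternative analyses. For Gstt1 the WT mean of 6.51 equals that of Gli2A Tg cells, and Gli2R Tg cells were lower than WT by 1.93 (adjusted p = 0.049). The fatty acid desaturase Scd2 was higher by 0.97 with 3 of 3 probe sets above 0, creatine kinase Ckb by 1.07, the glycogen-targeting phosphatase subunit Ppp1r3b by 1.33, the peptidase Pgpep1 by 0.98 and Lactb2 by 0.99. Scd2 was the only call among 22 sterol and fatty acid genes, of which 15 were above 0 with a median of 0.13. Acaca, the first enzyme of fatty acid synthesis, stood at -0.84 without overlap and without a call (adjusted p = 0.052).

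Dennd5a, an exchange factor for Rab proteins, measured 12.14, 12.36 and 12.06 in Gli2A Tg cells, against 10.98, 11.03 and 10.45 in Gli2R Tg cells, and Rab34, a small GTPase needed for primary cilia in other cell types, measured 9.00, 8.80 and 8.79 in Gli2A Tg cells, against 7.50, 7.48 and 6.96 in Gli2R Tg cells. Neither pair of groups overlaps. The differences were 1.36 ± 0.18 and 1.55 ± 0.21, each with an adjusted p under 0.05 with each array left out in turn. In both genes the WT mean lay between the groups and nearer to Gli2R Tg. The WT arrays for Dennd5a, at 11.29, 11.07 and 11.39, all lay above the Gli2R Tg arrays. Both probe sets for Rab34 rank high, at 1.55 and 1.90. Arap3, a GTPase activator, was higher by 1.89, and Baiap3, of regulated secretion, by 1.28. The lowest of the 3 probe sets for Arap3 differed by 0.13, and Arap3 was called in 6 of 20 alternative analyses. The remaining higher genes were Cfp (properdin, of complement, 6.05-fold), the clone AA467197 (2.07), the non-coding X-linked gene Kis2 (1.78) and Lmln (1.68). Cfp, a myeloid marker, measured 8.35, 7.64 and 6.76 in Gli2A Tg cells, against 4.82, 4.67 and 5.48 in Gli2R Tg cells. Its replicate 3 is lowest among Gli2A Tg arrays and overlaps with WT, whose highest array stands at 6.82. With the myeloid level as a covariate Cfp stood at 1.28, but Cfp is part of that level and was thus adjusted partly for itself.

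The 6 lower genes were Dapl1, Col4a4, Morn4, Cotl1, Cd52 and 6530402F18Rik. Dapl1, a gene expressed in naive T cells, measured 5.76, 5.47 and 5.02 in Gli2A Tg cells, against 7.87, 7.16 and 7.21 in Gli2R Tg cells, with WT at 7.46, 7.52 and 6.98. All Gli2A Tg arrays lie below all others. It was 3.99-fold lower in Gli2A Tg than in Gli2R Tg cells (log2 SE 0.27, adjusted p = 0.0075), with Gli2A Tg lower than WT by 1.90 (adjusted p = 0.022), and its log2 difference was -2.94 in resting cells (adjusted p = 6.71e-05). Cotl1 measured 11.13, 11.12 and 11.12 in Gli2A Tg cells, against 12.18, 12.14 and 12.10 in Gli2R Tg cells, a difference of -1.02 ± 0.14 (adjusted p = 0.0075). All 6 of its probe sets lie below 0, from -1.36 to -0.67. Cd52 measured 12.40, 12.29 and 12.50 in Gli2A Tg cells, against 13.27, 13.05 and 13.17 in Gli2R Tg cells, and WT cells stood at 13.15, 13.38 and 12.86. Col4a4, a basement membrane collagen, at -1.55, and Morn4, at -1.51, were dim, with both group means below the median gene level.

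Dapl1 was the only call among 23 genes of the naive and quiescent state, of which 14 were below 0. Each of the 6 whose groups did not overlap was lower in Gli2A Tg cells, against 7.43% of all genes, among them Igfbp4 at -0.78 and the IL-7 receptor Il7r at -0.56. The list's median was -0.07, and it turned to 0.02 with median centring in place of quantile normalization. In mean level the list ran from 10.38 to 10.43 in Gli2A Tg cells and stood at 10.62 in all 3 Gli2R Tg arrays.

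Lists without a call still differed in how their members lay. Of 23 genes of glycolysis and hypoxia, 20 were above 0, 8 did not overlap, all higher, and the median was 0.29, against 9.20% of all genes higher without overlap. The prolyl hydroxylase Egln3 measured 13.25, 13.40 and 12.14 in Gli2A Tg cells, against 11.62, 11.50 and 11.24 in Gli2R Tg cells (1.48, adjusted p = 0.08). The glucose transporter Slc2a3 (1.04, adjusted p = 0.06) and the lactate transporter Slc16a3 (1.03, adjusted p = 0.06) followed. All 3 WT means of these genes lay between the transgenic groups. Of 30 cell cycle genes 26 were above 0 and 13 did not overlap on the higher side, against 9.20% of all genes. Their median was 0.31, with Tk1 at 0.83, E2f2 at 0.80 and Aurkb at 0.74. In the limma fit 0 of the 26 had an unadjusted p under 0.05, and 1 member below 0 did. At rest all 30 cell cycle genes were above 0, with a median of 0.81. Interferon response genes lay the other way. Of 28, 5 were above 0, 10 did not overlap, all lower, against 7.43% of all genes, and the median was -0.18. Ifit3 measured 10.44, 9.34 and 9.87 in Gli2A Tg cells, against 11.33, 11.13 and 11.25 in Gli2R Tg cells (-1.36, adjusted p = 0.07), and Ifit1 stood at -1.12. These 2 do not overlap, and Cxcl10 at -0.65 does.

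**Figure D4:**
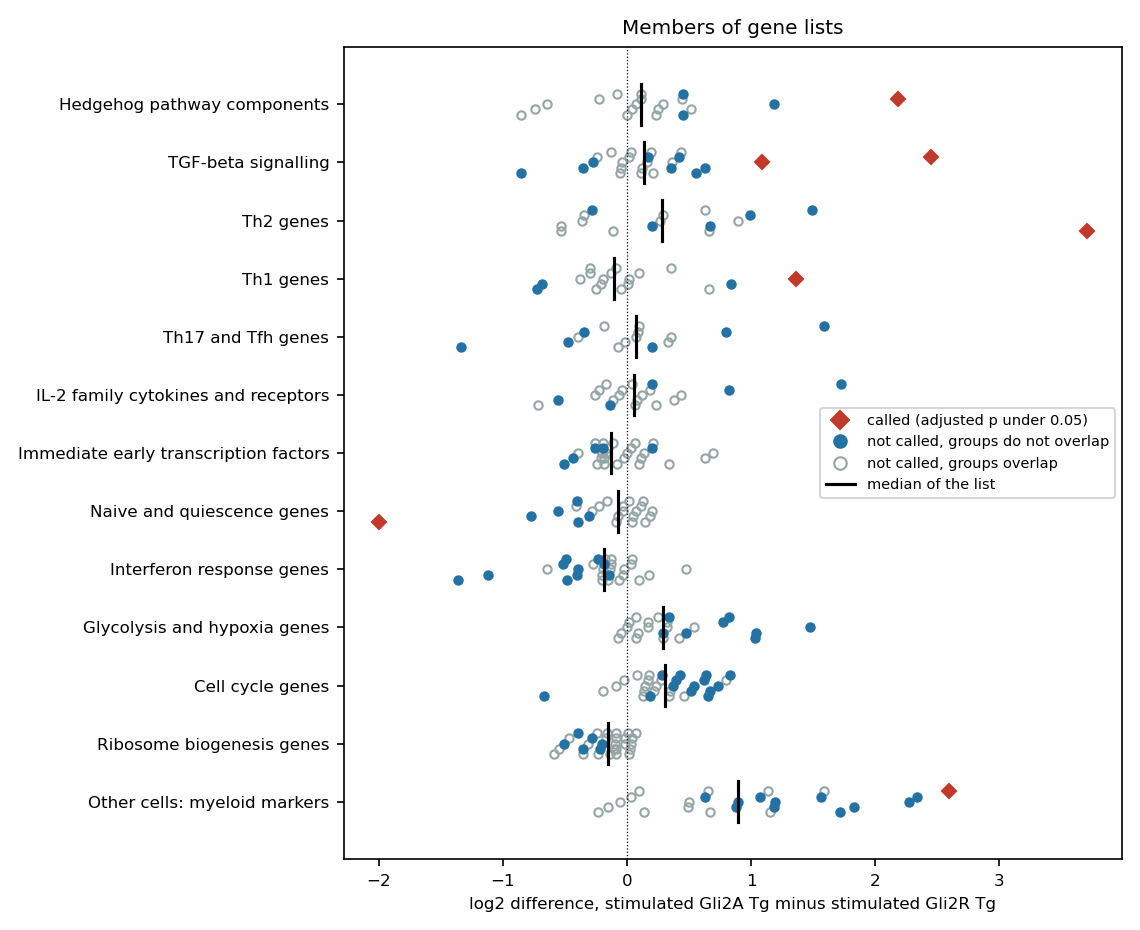
Log2 difference of Gli2A Tg minus Gli2R Tg in stimulated cells for each measured member of 13 gene lists, with diamonds for called genes, filled circles for genes whose groups of 3 do not overlap, open circles for the rest, and a vertical bar for each list's median. Myeloid markers have a median of 0.90, cell cycle genes of 0.31 and interferon response genes of -0.18.

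Ribosome biogenesis genes had 6 of 30 above 0 and a median of -0.15, with Nop58 at -0.59, Ncl at -0.55 and Nop14 at -0.51. Lists of activation genes held no call. Among 28 immediate early transcription factors the median was -0.13, with Ier3 at 0.69, Nfil3 at 0.63 and Myc at -0.51. Without overlap, 4 of them were lower and 1 was higher, against 7.43% and 9.2% of all genes. The costimulators and checkpoint receptors had a median of 0.10 over 27 genes, with Cd40lg at -1.04, Lag3 at 0.72 and Tnfsf8 at -0.68. Here too 4 were lower and 1 was higher without overlap, against the same shares of all genes. Effector and memory genes had a median of -0.13 over 22, with 15 below 0, 6 of them lower without overlap against 7.43% of all genes, and with Cxcr6 at 1.21, S100a4 at -0.89 and S100a6 at -0.85, and anergy genes one of -0.20 over 16, with Nedd4 at 1.03, Rnf128 at -0.64 and Nrp1 at -0.56. Granzyme and cytotoxic genes (0.13 over 17, Gzma at 1.01, Gzmm at 0.87, Serpinb9 at 0.82) and apoptosis regulators (0.15 over 19, Bcl2 at 1.01, Bmf at 0.76, Bik at 0.45) held no call. Neither did the 28 oxidative phosphorylation subunits, with a median of 0.05 and a range of -0.16 to 0.27.

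In 8 further lists no member was called, the median lay within 0.08 of 0, and its sign changed with the scaling. For T cell receptor components, NF-kB genes, MAP kinase feedback genes, amino acid and nucleotide synthesis genes, Notch genes and CD4 identity markers the median was -0.03, -0.05, -0.05, -0.05, -0.02 and -0.07, and above 0 with median centring. For chemokines and their receptors and for chaperones it was 0.03 each, and just below 0 with the deposited scaling alone. The members furthest from 0 were Malt1 (0.61), Dgka (-0.56) and Txk (-0.49) of the receptor components, Map3k14 (-0.56), Nfkbid (-0.35) and Ikbkb (-0.35) of NF-kB, Rgs16 (-1.56), Gadd45g (0.74) and Dusp14 (-0.67) of MAP kinase feedback, and Asns (0.93), Atic (-0.80) and Bcat2 (-0.78) of synthesis. In the other lists they were Jag1 (0.87), Nrarp (0.66) and Notch3 (-0.55) of Notch, Trat1 (0.93), Zbtb7b (-0.91) and Cd6 (-0.28) of CD4 identity, Ptgir (1.32), Cxcr6 (1.21) and Ccl17 (1.21) of chemokines and related receptors, and Hmox1 (0.99), Hspa1a (0.83) and Hspa1b (0.70) of chaperones.

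Set beside stimulated WT cells, whose 3 arrays serve for both transgenic genotypes, the WT mean lay between the transgenic means in 40 of the 42 called genes, nearer to Gli2R Tg in 28 and nearer to Gli2A Tg in 12. Genes were called for transgenic means that lie apart, which by itself favours a WT mean between them. The count was not made over all genes, so it does not show that WT cells are intermediate. Ptch1, Slco4a1, Rab34, Dapl1 and Cd52 had WT nearer to Gli2R Tg, with Gli2A Tg differing from WT by 2.12, 1.99, 1.35, -1.90 and -0.73 and Gli2R Tg by -0.06, -0.50, -0.21, 0.09 and 0.03. Gstt1, Tgm2, Mef2c and Cnr2 had WT nearer to Gli2A Tg, with Gli2A Tg differing from WT by 0.00, 0.45, 0.68 and 0.19 and Gli2R Tg by -1.93, -1.42, -1.26 and -1.30. In Jdp2 and Tgfbr3 WT lay below both.

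Resting cells of the same genotypes, measured on other arrays, gave 436 calls, 2.4% of genes, 285 higher (1.57%) and 151 lower (0.83%), and 20.3% of genes without overlap. There too the myeloid list was higher, at 11.68 to 11.87 in resting Gli2A Tg cells and 10.52 to 10.83 in resting Gli2R Tg cells, and with its level as a covariate 24 genes were called at rest. Of the 42 stimulated calls 37 had the same sign at rest, 31 of the 36 higher genes and 6 of the 6 lower ones, and 11 were called there in the same direction, which is 26.2% of the stimulated and 2.52% of the resting calls. Those 11 were Ptch1, Slco4a1, Tgfb3, AA467197, Spsb1, Cd200r4, Dennd5a, Baiap3, Ckb, Scd2 and Dapl1. No gene was called in opposite directions. From the other side, 302 of the 436 resting calls had the same sign in stimulated cells (69.3%, against 54.5% of all genes). Il4, Cysltr1, Hbegf, Errfi1, Adgre5 and Cd52, with resting differences of 0.30, 0.13, 0.14, 0.05, 0.03 and -0.08, were close to equal at rest.

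Whether the genotype difference itself changed with stimulation was tested as an interaction. In it 20 genes were called (0.11%), 6 with a higher (0.033%) and 14 with a lower (0.077%) difference in stimulated than in resting cells. All resting Gli2A Tg and Gli2R Tg arrays had a female pattern, so sex is partly confounded with the interaction too. With sex as a covariate it gave 10 calls. Il4 and Kis2 were the pair called in both the stimulated comparison and the interaction. For Il4 the interaction was 3.40 ± 0.52 (adjusted p = 0.019), and for Kis2 it was 2.87, the resting difference being -1.08. Csf2, with 1.73 in stimulated and -1.34 in resting cells, gave 3.07 (adjusted p = 0.040). The heat shock genes Hspa1b and Hspa1a gave the largest values, 5.29 and 4.83. Hspa1b measured 10.93, 10.80 and 10.02 in stimulated Gli2A Tg cells, 10.23, 9.85 and 9.57 in stimulated Gli2R Tg cells and 11.30, 10.16 and 10.51 in stimulated WT cells. At rest Hspa1b measured 9.92, 9.40 and 8.74 in Gli2A Tg cells, 13.84, 14.23 and 13.77 in Gli2R Tg cells and 14.02, 13.91 and 12.31 in WT cells. Among resting arrays those of Gli2A Tg cells lie below all others, while Gli2R Tg and WT overlap, and the 2 gene copies are near-identical, so their signals may not be separate. At the other end, the interferon-induced Rsad2 gave -3.83, the mitochondrial iron importer Slc25a37 -3.22, Cdr2 -2.64, the apolipoprotein Apoc1 -2.51 and the interferon-induced Ifit1 -2.34. Rsad2 measured 11.17, 11.07 and 11.19 in stimulated Gli2A Tg, 11.31, 11.27 and 11.42 in stimulated Gli2R Tg, 13.06, 13.31 and 14.50 in resting Gli2A Tg cells and 10.36, 9.77 and 9.80 in resting Gli2R Tg cells, with resting WT between them at 11.87, 11.17 and 11.93. For the interferon list as a whole the median was 0.34 at rest, where 6 members were called higher, and -0.18 in stimulated cells.

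**Figure D5:**
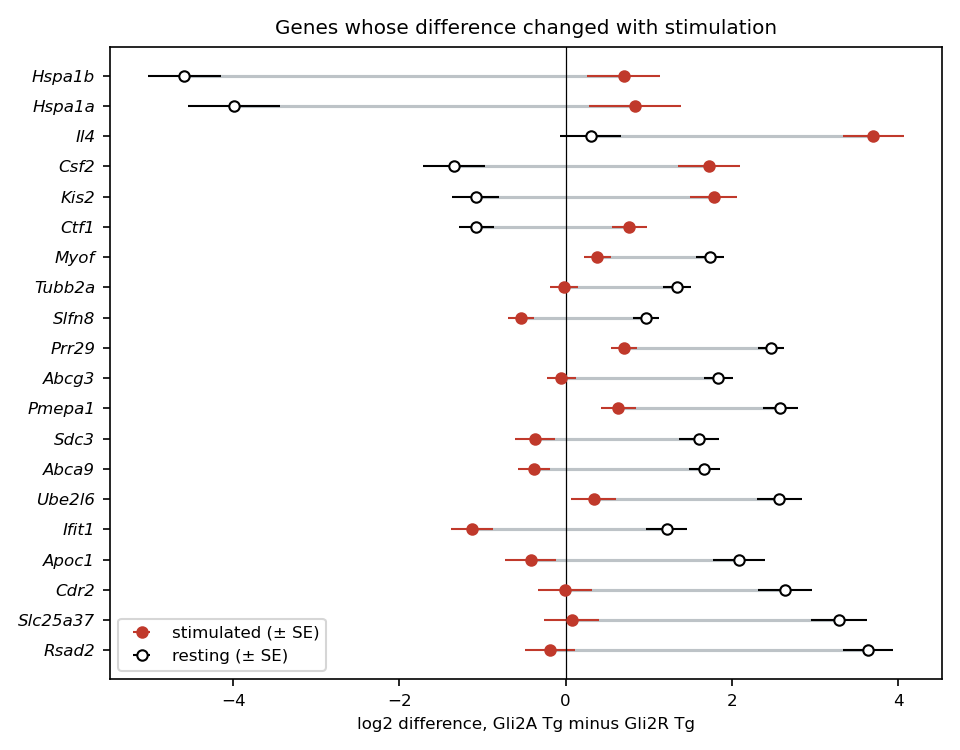
Log2 difference of Gli2A Tg minus Gli2R Tg with its SE for the 20 genes called in the interaction, filled for stimulated and open for resting cells, with a grey line joining the pair. Il4 moves to 3.70 in stimulated cells with 0.30 at rest, while Rsad2 stands at -0.19 in stimulated cells and 3.64 at rest.

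With each of the 6 arrays left out in turn, 12 of the 42 genes stayed called: Ptch1, Il4, Slco4a1, Tgfb3, Mef2c, Reck, Rab34, Cnr2, Dennd5a, Hbegf, Cotl1 and Dapl1. The number of calls was 27, 21 and 71 without Gli2A Tg replicates 1, 2 and 3, and 24, 43 and 19 without Gli2R Tg replicates 1, 2 and 3.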

How the data were processed

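The deposited table holds linear intensity values for 45101 Affymetrix probe sets on 18 arrays. Per the submitters' processing notes, the affy package made these intensities, in a version they do not state, and each deposited array has a 2% trimmed mean of 500. RNA (1 ug) was labelled with biotin, per the labels' protocols. The number of arrays limits the precision.

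Values were taken as log2(intensity + 16) and quantile normalized. Of the probe sets, 34945 had 1 gene symbol in GEO's platform annotation, 932 had several, 9160 had none and 64 were controls. The brightest probe set with 1 symbol stood for each of 18193 genes. Group means over all 18 arrays were fitted with limma 3.58.1 in R 4.3.3 (lmFit, eBayes), so that 6 groups share 1 estimate of the spread, with Benjamini-Hochberg adjustment of p over all genes of a comparison. The fit was tested on simulated data.

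Genes named were Gli2 with its probe sets, the 15 called genes with the largest and the 15 with the smallest difference without overlap (leaving out clone names), from each list its called members or else the 3 largest differences, and 5 interaction calls at each end. The other called genes, WT, resting and marker values were named after their values were seen. The comparison and its 37 lists (737 genes, 680 measured) were chosen with earlier results of these data known, so lists carry no test. Groups share replicate numbers, and residuals of same-numbered stimulated Gli2A Tg and Gli2R Tg arrays correlated at 0.02, 0.01 and 0.05. With 3 arrays a group this cannot exclude pairing or a shared batch. Stimulated and resting arrays were not compared in this way. No array repeated another: in any pair at least 96.8% of probe sets differed by over 1%.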

Additional observations from a re-analysis of the deposited data

Results flagged for a closer look

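In 20 genes the Gli2A Tg minus Gli2R Tg difference itself differed between stimulated and resting cells, by an interaction test in limma at an adjusted p under 0.05. Single arrays were not tested as outliers within groups of 3. Values are the stimulated minus the resting difference on the log2 scale.

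The genotype difference, not the level, was higher in stimulated cells for the chaperones Hspa1b (5.29) and Hspa1a (4.83). It was also higher for the cytokines Il4 (3.40), Csf2 (3.07) and Ctf1 (1.84), and for the non-coding Kis2 (2.87). Kis2 stayed called in 24 of 25 alternative analyses, Hspa1b in 26 of 26, Hspa1a in 16 of 26, Il4 in 18 of 26, Csf2 in 11 of 26 and Ctf1 in 12 of 25.

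The genotype difference was lower in stimulated cells for the interferon-induced Rsad2 (-3.83), Ifit1 (-2.34) and Ube2l6 (-2.23), and for Slfn8 (-1.50). For the transporters Slc25a37 (-3.22), Abca9 (-2.05) and Abcg3 (-1.89) and the apolipoprotein Apoc1 (-2.51) it was lower too. The same held for Cdr2 (-2.64), Sdc3 (-1.97), the TGF-beta feedback gene Pmepa1 (-1.95), Prr29 (-1.76), Tubb2a (-1.36) and Myof (-1.36). Rsad2 and Abcg3 stayed called in 25 of 26 alternatives, Prr29 in 24 of 25, Tubb2a in 7 of 26 and Myof in 8 of 25. Abca9 averaged 4.63 and 5.01 in stimulated Gli2A Tg and Gli2R Tg cells, against 8.35 and 6.68 at rest. In the same order Apoc1 averaged 5.96 and 6.38, against 9.82 and 7.73, and Abcg3 6.44 and 6.49, against 11.03 and 9.20. What low signal in stimulated cells adds to these interactions was not tested.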

How the results depend on the processing

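None of the 42 called genes changed sign in the alternatives run for them, but their calls were not stable: 465 of 867 gene values stayed called and no gene was called in all alternatives. Single genes that were not called had no alternatives run for the stimulated difference. The stimulated comparison, with 42 calls, gave 52 with median centring, 47 with the deposited scaling, 30 with a pseudocount of 1, 45 over all probe sets and 47 with the replicate numbers as a block; the block gave 501 at rest and 17 in the interaction. It gave more calls with genes above the median level only (121), a pseudocount of 64 (103), eBayes with trend and robust options (137) and array weights (132), and fewer with the mean of probe sets (23), sex as a covariate (4), female-pattern arrays (9, with 1 stimulated Gli2R Tg array), the myeloid level as a covariate (1), the 9 stimulated arrays (1) or the 6 compared arrays (0; 1693 at an unadjusted p under 0.05). The resting 436 calls became 1007, 930 and 884 with the first 3 of these, 51 in the compared arrays, 166 in female-pattern arrays and 24 with the myeloid level. The 20 interaction calls became 128, 78 and 101, 34 with array weights, 35 over all probe sets, 12 in the compared arrays, 10 with sex and 3 in female-pattern arrays. Leaving out 1 array gave 19 to 71, 154 to 597 and 6 to 34 calls. Fewer arrays leave less information on the spread; other causes were not tested. Signal near background limits the 9 called genes with both means below the median level, and Tgfb3, whose Gli2R Tg mean is low. In the interaction it limits Abca9 and Myof, whose stimulated Gli2A Tg and Gli2R Tg means all lie below the 25th percentile of gene levels (5.37).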
